A study of Mus musculus with 36 samples.

Results

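The 34 imprinted genes described here were taken from a list of symbols (26 protein-coding, 3 lincRNA, 3 antisense, 1 processed transcript and 1 sense intronic gene), and each symbol matched 1 gene of the 55413 GENCODE vM21 genes on the mm10 chromosomes. They lie in 16 domains on 9 chromosomes, and all are autosomal. They were set against the 31868 genes of the same biotypes. For each mouse, a gene had a mark when a peak overlapped, by at least 1 bp, the windows reaching 3 kb to either side of its transcription start sites (TSSs), and the covered percent is the share of those windows that lies under peaks.

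Imprinted genes are expressed mainly or only from the copy inherited from 1 parent. The choice is set by DNA methylation laid down in the egg or the sperm at imprinting control regions, which act over clusters of neighbouring genes, often through a long noncoding RNA. On the copy that is kept silent, Polycomb repressive complex 2, whose catalytic subunit is EZH2, can add K27me3 to histone H3, whereas K4me3 marks active or poised gene starts. A peak list does not separate the parental copies, so both marks at 1 gene may lie on different copies or in different cells.

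K4me3 and K27me3 were profiled by ChIP-Seq in whole pancreas of 2- to 4-month-old mice, 22 days after tamoxifen by oral gavage, in 3 control and 3 EZH2ΔSET mice, with 1 peak list for each mark and mouse. The control mice were labelled wild type. EZH2ΔSET mice lost the SET domain of EZH2 and carried Mist1creERT/+, an inducible Cre active in acinar cells, and the study's methods allow controls with or without that Cre allele, so an effect of the allele and one of the deletion cannot be told apart. The labels do not give sex. Only acinar cells recombine, so unrecombined cells of the same pancreas contribute to every list, and in bulk tissue fewer cells carrying a mark and less mark per cell cannot be told apart.

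The 6 K4me3 lists held 17400 to 25886 peaks and the 6 K27me3 lists 21420 to 31274, and depth is unknown because the lists give positions only. Control mouse 2 stood apart. It had the fewest K4me3 peaks, and 11.7% of its autosomal K27me3 peaks overlapped a K4me3 peak, against 0.693 to 1.97% in the other 5 mice. EZH2ΔSET mouse 2 had 17 X-chromosomal K27me3 peaks, against 5637 to 7367 in the other 5, and the most autosomal ones (28783). All 9 acinar marker genes, Cpa1 and Ptf1a among them, had K4me3 in all 6 mice. Of the 7 islet markers, Ins1, Ins2, Gcg and Sst had K4me3 in none, while Pdx1 had it in 6 mice and Neurod1 and Nkx6-1 in 5. Other cell types were traceable, with K4me3 in all 6 mice at 1 of 4 stromal, 1 of 3 endothelial and 0 of 4 leukocyte markers, and between 0 and 3 leukocyte markers carried it in a given mouse.

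The promoters of 5 genes are shown because the results turn on the marks found there. Starts with neither mark are not among them, and neither are printed stretches as CpG-dense as the upper quartile given below. They are RefSeq sequences of GRCm38.p6, each from 250 bases before to 50 bases after a start, 5′ to 3′ on the gene's strand, with CpG dinucleotides in capitals. Kcnq1ot1 (chr7:143296498-143296797, minus), Zrsr1 (chr11:22971755-22972054, plus) and Airn (chr17:12741061-12741360, plus) lay under a K4me3 peak in all 6 mice and under K27me3 in none. Mkrn3 (chr7:62420104-62420403, minus) lay under K27me3 in 6 mice and under K4me3 in 5, and Dlk1 (chr12:109452573-109452872, plus) lay under K27me3 in 1 and K4me3 in none.
Kcnq1ot1: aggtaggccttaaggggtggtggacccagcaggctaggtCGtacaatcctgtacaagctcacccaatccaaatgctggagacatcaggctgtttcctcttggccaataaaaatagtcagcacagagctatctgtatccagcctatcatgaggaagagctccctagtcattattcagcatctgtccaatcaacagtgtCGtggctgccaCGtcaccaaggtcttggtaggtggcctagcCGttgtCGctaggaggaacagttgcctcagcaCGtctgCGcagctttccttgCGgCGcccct
Zrsr1: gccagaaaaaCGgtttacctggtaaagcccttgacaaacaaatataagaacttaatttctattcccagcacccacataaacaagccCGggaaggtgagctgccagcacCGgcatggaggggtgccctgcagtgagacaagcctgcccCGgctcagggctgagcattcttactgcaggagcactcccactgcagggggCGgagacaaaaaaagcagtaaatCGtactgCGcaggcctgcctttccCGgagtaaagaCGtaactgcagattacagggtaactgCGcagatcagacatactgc
Airn: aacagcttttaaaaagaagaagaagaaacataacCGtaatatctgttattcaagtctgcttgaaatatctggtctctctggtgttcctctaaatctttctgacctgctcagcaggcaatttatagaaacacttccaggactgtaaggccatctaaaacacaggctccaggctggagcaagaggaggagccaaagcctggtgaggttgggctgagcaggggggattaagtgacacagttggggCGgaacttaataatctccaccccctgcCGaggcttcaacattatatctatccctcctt
Mkrn3: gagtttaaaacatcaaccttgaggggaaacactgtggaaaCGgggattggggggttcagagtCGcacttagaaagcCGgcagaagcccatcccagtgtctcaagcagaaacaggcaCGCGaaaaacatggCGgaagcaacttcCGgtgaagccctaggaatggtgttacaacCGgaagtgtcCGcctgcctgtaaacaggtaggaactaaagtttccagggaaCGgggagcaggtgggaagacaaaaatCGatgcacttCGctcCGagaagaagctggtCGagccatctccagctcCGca
Dlk1: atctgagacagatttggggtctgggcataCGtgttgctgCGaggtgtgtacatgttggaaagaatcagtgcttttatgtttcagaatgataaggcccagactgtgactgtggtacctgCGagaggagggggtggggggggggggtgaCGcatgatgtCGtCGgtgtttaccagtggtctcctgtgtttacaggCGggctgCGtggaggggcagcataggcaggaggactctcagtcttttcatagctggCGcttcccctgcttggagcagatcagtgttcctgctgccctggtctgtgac
These stretches hold 9, 10, 3, 15 and 9 CpGs in the order printed, against a median of 7 and quartiles of 3 and 20 over all 32851 RefSeq promoters.

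In wider windows, a 500 bp stretch with at least 55% GC and a CpG observed over expected ratio of at least 0.75 lay within 500 bp of a TSS in 21 of the 34 genes (61.8%), against 39.6% of all 31868. Such CpG-rich starts were found in 14 of the 19 imprinted genes with K4me3 in all 6 mice, in 6 of the 9 with K4me3 in some mice, and in 1 of the 6 with none, which was Dlk1. Of the genes with a printed promoter, all but Kcnq1ot1 had a CpG-rich start. At 50% GC and a ratio of 0.6 the count was 30 of 34 (88.2%, against 48.6% of all genes), and Rian, Mirg, Slc22a18 and Ndn were the 4 without one. The hexamer TGCCGC, read on both strands as the core bound by ZFP57, a zinc finger protein that protects imprints, was present in 9 of the 42 RefSeq promoters matched to 27 of these genes (21.4%) and in 11.6% of all RefSeq promoters of this length. Those 9 belonged to 8 genes, Grb10, Igf2, Meg3, Mest, Nnat, Plagl1, Snrpn and Zim1. AAGATGGC, the core bound by YY1, was present in 0 of the 42, and in 2.75% of all promoters.

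K4me3 was common at the imprinted genes. It was present in 28, 21 and 27 of 34 genes in control mice 1, 2 and 3 and in 25, 24 and 26 in EZH2ΔSET mice. The mean over all mice was 25.17 ± 2.483 genes (SD, n = 6), and the genotype means were 25.33 ± 3.786 in control and 25 ± 1 in EZH2ΔSET tissue (n = 3 each), a difference far smaller than the spread within the control group. With all TSSs counted, the share of all genes with K4me3 was 48.8 to 51.5% per mouse, below the share of imprinted genes in each of the 6 mice. In all, 19 imprinted genes had K4me3 in all 6 mice (55.9%, against 45.9% of all genes), 9 had it in some mice (26.5%, against 9.12%), and Dlk1, Meg3, Rian, Mirg, Ndn and Magel2 had it in none (17.6%, against 45% of all genes). The 9 were Igf2 (1 mouse), the zinc finger gene Zim1 (3), the transporter Slc22a18 and Nespas (4 each), and Ascl2, Grb10, Nnat, Mkrn3 and Slc38a4 (5 each). Control mouse 2 was the 1 mouse without K4me3 at Grb10, Nnat, Mkrn3 and Slc38a4, so that 23 genes had it in all 5 other mice.

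K27me3 was sparse, and control mouse 2 held more of its calls than any other mouse. It was present at 3, 13 and 3 imprinted genes in control mice 1, 2 and 3 and at 4, 4 and 2 in EZH2ΔSET mice. The mean was 4.833 ± 4.07 genes (SD, n = 6), and 3.2 ± 0.8367 without control mouse 2 (n = 5). The genotype means, 6.333 in control and 3.333 in EZH2ΔSET tissue, differed by less than the SD within the control group (5.774, n = 3). Over all genes the share with K27me3 was 21.4% in control mouse 2, against 38.2% of the imprinted genes, and 9.69 to 14.4% in the other 5 mice, against 5.88 to 11.8%. There were 19 imprinted genes that had K27me3 in no mouse (55.9%, against 69.4% of all genes), namely H19, Peg3, Zim1, Meg3, Mirg, Igf2r, Airn, Kcnq1, Kcnq1ot1, Phlda2, Slc22a18, Cd81, Tssc4, Nnat, Blcap, Snrpn, Peg13, Zrsr1 and Impact. Without control mouse 2 the number with none was 29 (85.3%, against 79.3% of all genes). Mkrn3 was the single member with K27me3 in all 6 mice (2.94% of the imprinted genes, against 3.12% of all genes), and Magel2 joined it in all 5 mice other than control mouse 2.

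**Figure D1:**
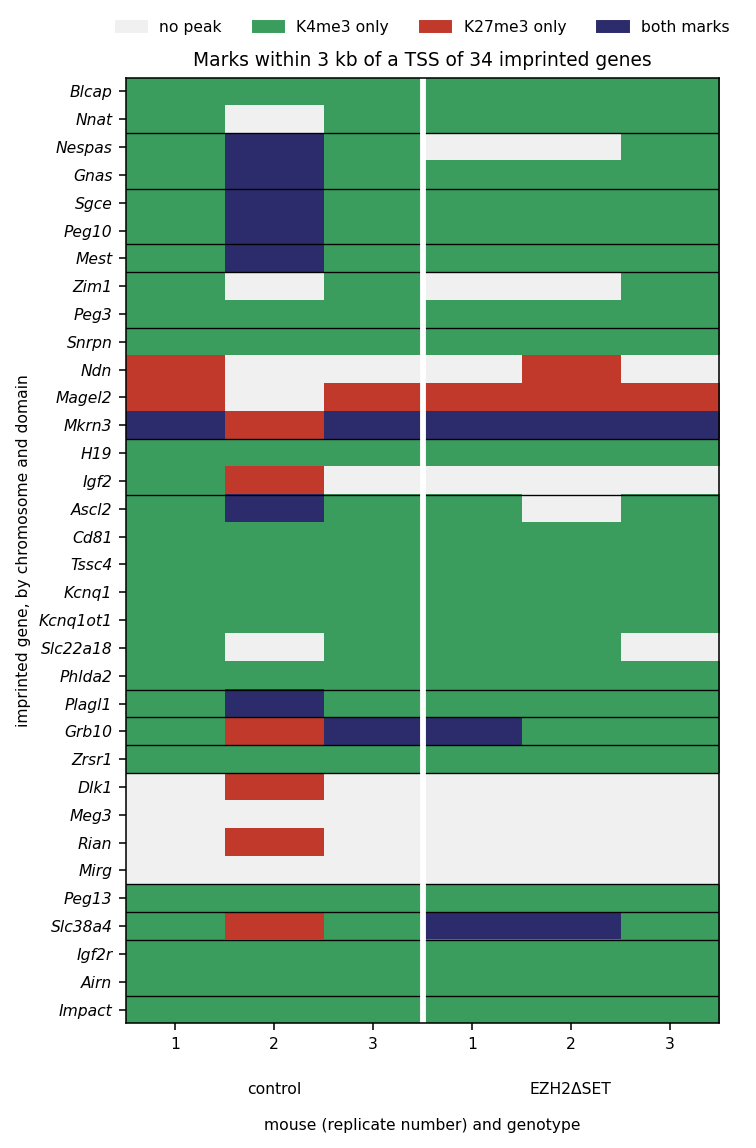
Each row is 1 of the 34 imprinted genes, ordered by chromosome with lines between domains, and each column is 1 mouse. Colour gives the marks found within 3 kb of a TSS. Mkrn3 carries both marks in 5 of 6 mice, the chromosome 12 genes Dlk1, Meg3, Rian and Mirg carry K4me3 in none, and control mouse 2 holds 13 of the K27me3 calls.

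**Figure D2:**
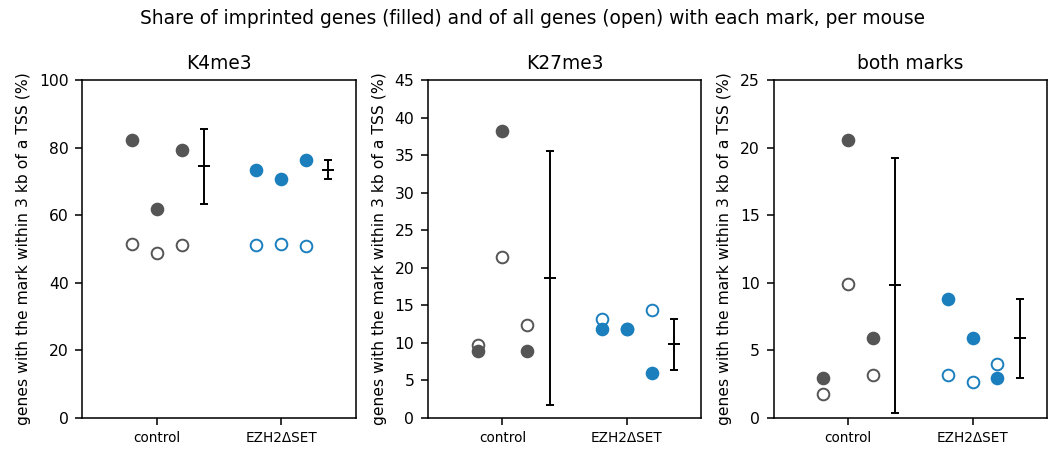
The share of the 34 imprinted genes (filled points) and of 31868 genes (open points) with each mark is plotted for every mouse, with 1 panel for K4me3, 1 for K27me3 and 1 for both marks. Bars at the right of each genotype give the mean and SD of the imprinted genes over 3 mice. With all TSSs counted, imprinted genes lie above all genes for K4me3 in all 6 mice, and the K27me3 shares overlap between the genotypes.

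Coverage by K4me3 was above 50% of the window in all 6 mice at Peg13, Zrsr1 and Kcnq1ot1. Peg13, a noncoding RNA within Trappc9 (chr15:72805600-72810324, minus), had 67.9, 68.9 and 67.9% of its window covered in control mice and 63.5, 67.3 and 66.5% in EZH2ΔSET mice. Zrsr1, an intronless gene related to a splicing factor and located in an intron of Commd1 (chr11:22972005-22976496, plus), was covered over 60.4, 58.5 and 60.8% in control and 61.2, 62.3 and 59.5% in EZH2ΔSET mice. Its peak was 4226 to 5917 bp wide and began between -277 and -77 bp relative to the 5′-most TSS. Kcnq1ot1, the noncoding RNA that runs antisense within Kcnq1 (chr7:143203458-143296549, minus), was covered over 54.1, 52.8 and 56.0% in control and 54.2, 56.8 and 54.2% in EZH2ΔSET mice. The Kcnq1ot1 peak reached into the transcribed part and was 4767, 3170 and 4905 bp wide in control and 4751, 5032 and 5124 bp in EZH2ΔSET mice, with control mouse 2 the shortest of the 6. These 3 genes had no K27me3 within 3 kb of the TSS in any mouse.

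A broad K4me3 peak was nonetheless not a general feature of the imprinted genes. The widest peak at a gene was at least 3 kb in 21.4 to 25% of the imprinted genes that had one, depending on the mouse, and in 20.9 to 28.7% of all genes that had one. The peak with the largest median width belonged to Gnas, which encodes the stimulatory G protein alpha subunit (chr2:174284320-174346744, plus), with 6343 to 6682 bp. This peak lay between 41924 and 48666 bp downstream of the 5′-most of the gene's 16 TSSs, over the downstream starts and not over the first, which was covered in EZH2ΔSET mouse 3 alone.

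At several genes K4me3 sat away from the first annotated TSS. H19, a noncoding RNA expressed from the maternal copy and the partner of Igf2, had a peak of 629 to 757 bp in all 6 mice that lay between positions -2726 and -1950 bp relative to its 5′-most TSS, and no K4me3 over any of its 7 TSSs or its body. The region that controls H19 and Igf2 lies upstream of H19. This call depends on the window, since with 1 kb on either side it was present in 0 of 6 mice, and it was also lost in all 6 when K4me3 peaks under 1 kb were removed. Igf2, the growth factor gene of the same domain, had K4me3 in control mouse 1 alone, with a peak of 626 bp. Grb10, an adaptor that restrains insulin receptor signalling, had a peak of 1772 to 2578 bp that began at least 1944 bp inside the gene in 5 mice and a smaller one of 626 to 774 bp closer to the start in the same 5. Neither covered a TSS, and control mouse 2 had none. At Snrpn, a splicing protein gene, the peak lay from 134651 to 136876 bp downstream of the 5′-most TSS in all 6 mice, over the second annotated start. Plagl1, a zinc finger transcription factor, Mest, a hydrolase-like gene, and Slc38a4, an amino acid transporter, likewise had peaks over downstream starts and not the first, in 6, 5 and 5 mice. Counting the 5′-most TSS alone lowered the mean number of imprinted genes with K4me3 from 25.17 to 19.33 per mouse. Of the 34 genes, 29 have more than 1 TSS. The share of all genes with the 5′-most TSS alone is not given here, so a higher share at imprinted genes is shown for all TSSs only.

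**Figure D3:**
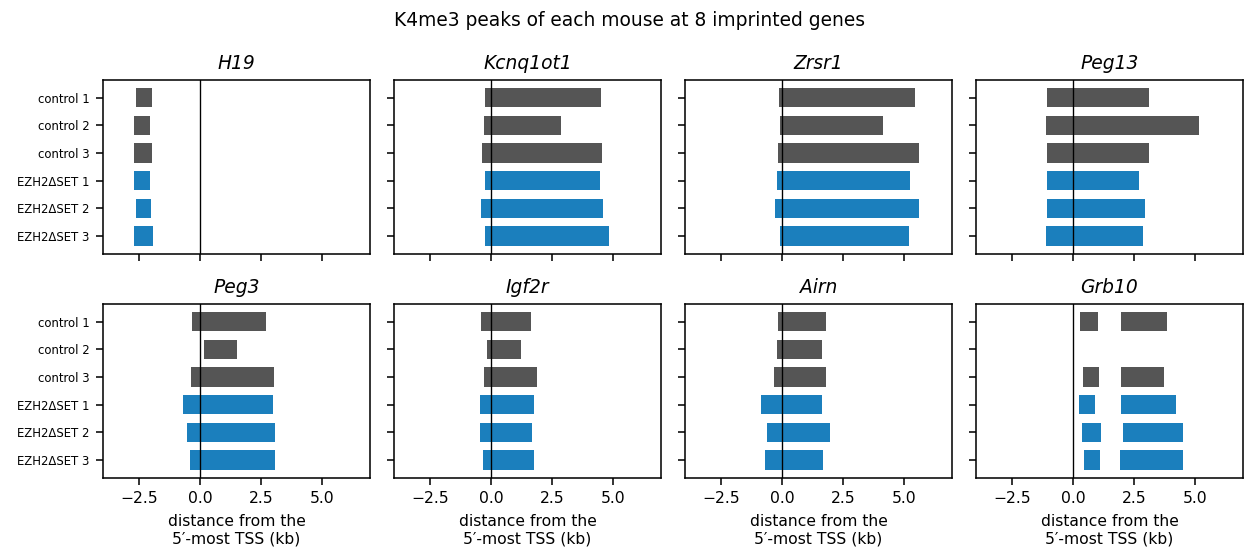
K4me3 peaks of each mouse (1 bar per peak, coloured by genotype) are drawn by distance in kb from the 5′-most TSS along the direction of transcription at 8 imprinted genes. The H19 peaks lie upstream of the TSS in all 6 mice, Kcnq1ot1, Zrsr1 and Peg13 peaks span it, and the Grb10 peaks lie downstream of it in 5 mice.

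Several imprinted genes lie next to, or overlap, another gene of the list. Igf2r, the receptor that clears IGF2 (chr17:12682406-12769664, minus), and Airn, the antisense RNA that starts within it (chr17:12741311-12860136, plus), had K4me3 in 6 of 6 mice, and neither had K27me3 in any. Peg10, a retrotransposon-derived gene, and Sgce, which encodes a sarcoglycan, start next to each other in opposite directions and share 5902 bp of window, so their common peak cannot be assigned to either. Windows were also shared by Nnat and Blcap (6609 bp), Gnas and Nespas (9502 bp) and Cd81 and Tssc4 (2953 bp), and a peak there counts for both genes of a pair. The Cd81 and Tssc4 peak covered Tssc4 starts and no Cd81 start, and Cd81 had another peak over its own first starts. In the Kcnq1 domain, the potassium channel gene Kcnq1 had a peak of 1989 to 3599 bp just inside the gene in 6 mice, and Phlda2, a pleckstrin homology domain gene that restrains placental growth, had one of 1559 to 1848 bp over a start. Nespas, the antisense RNA of the Gnas cluster (chr2:174281237-174295436, minus), had K4me3 over 4.16, 4.16 and 10.8% of its windows in control mice and over 0, 0 and 9.73% in EZH2ΔSET mice, from peaks of at most 671 bp that lay over none of its TSSs. In the chromosome 12 cluster, no K4me3 peak was found at the paternally expressed Dlk1 or the maternally expressed noncoding Meg3, Rian and Mirg in any mouse, which at unknown depth means that none was called.

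Mkrn3, a paternally expressed makorin gene whose product carries a RING finger (chr7:62417593-62420139, minus), was the one imprinted gene with both marks in at least 3 mice (2.94%, against 3.36% of all genes). K27me3 covered 49.0, 68.7 and 48.1% of its window in control mice and 46.0, 70.2 and 68.0% in EZH2ΔSET mice, and the genotypes overlapped. Each mouse had 1 K27me3 peak there, 11812 to 16837 bp wide, that began between -15756 and -11405 bp relative to the TSS and ended between -238 and 1212 bp. K4me3 covered 18.3, 0 and 17.997% of the window in control mice and 20.3, 17.7 and 22.4% in EZH2ΔSET mice. The K4me3 peak was 1065 to 1343 bp wide and lay over the TSS in 5 mice, all but control mouse 2, and in all 5 it overlapped the K27me3 peak by at least 1 bp. In control mice 1 and 3 and EZH2ΔSET mouse 1 the K27me3 peak ended within the K4me3 peak, and in EZH2ΔSET mice 2 and 3 the K4me3 peak lay wholly inside it. Both marks at a TSS window in at least 5 mice were found for 1.52% of all genes, and with the peaks overlapping each other for 0.417%.

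The neighbours Ndn and Magel2, which encode MAGE family proteins, had K27me3 in 2 and 5 mice and K4me3 in none. Ndn (chr7:62346569-62350262, plus) was covered by K27me3 over 46.8% of its window in control mouse 1 and 88.6% in EZH2ΔSET mouse 2, and had none in the other 4 mice. Magel2 (chr7:62377010-62381640, plus) was covered over 34.9, 0 and 3.93% in control mice and over 43.8, 13.2 and 4.58% in EZH2ΔSET mice, by peaks that all ended before the TSS, between -2765 and -371 bp. With 1 kb windows Magel2 had K27me3 in 2 mice, and with at least 10% of the window in 3. Over the 103.6 kb from 10 kb before Ndn to 20 kb beyond the start of Mkrn3, K27me3 covered 58.9, 16.9 and 54.6% in control mice and 47.1, 68.3 and 39.7% in EZH2ΔSET mice, with means of 43.5 ± 23.1% and 51.7 ± 14.8% (SD, n = 3 each). Control mouse 2 was thus lowest here although it had the most imprinted genes with K27me3. Snrpn, in the same domain, had none in any mouse.

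**Figure D4:**
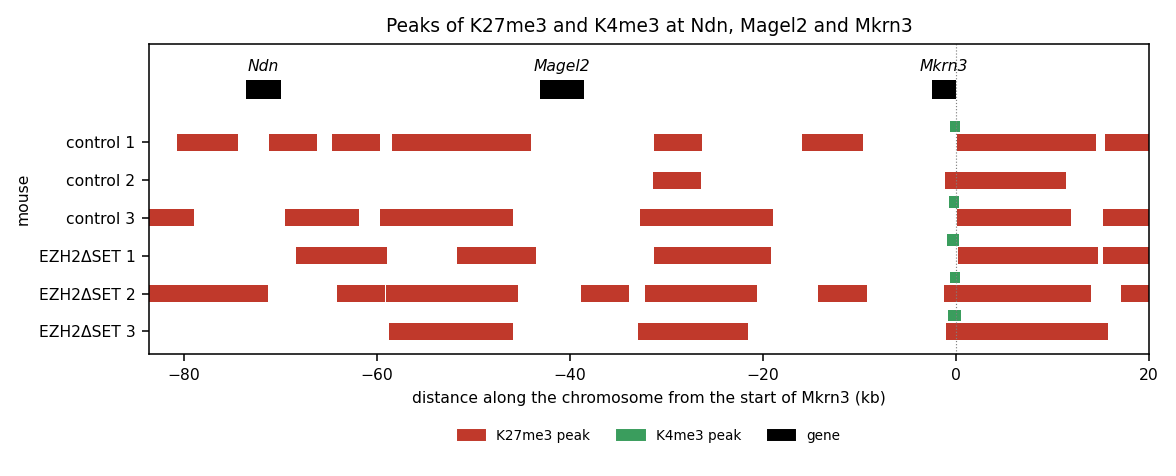
K27me3 peaks (red) and K4me3 peaks (green) of each mouse are drawn against the distance in kb along the chromosome from the start of Mkrn3, with the 3 genes in black. A K27me3 peak adjoins the start of Mkrn3 in all 6 mice, and the only K4me3 peaks of the stretch lie at Mkrn3, in 5 mice.

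Most other K27me3 calls were confined to control mouse 2. In that mouse alone, K27me3 covered 100% of the windows of Dlk1, which encodes a transmembrane protein related to Notch ligands (chr12:109452823-109463336, plus), and of Ascl2, a basic helix-loop-helix transcription factor gene. It also covered there 81.1% at Igf2, 41.6% at Sgce, 41.5% at Nespas, 36.0% at Peg10, 35.3% at Mest, 25.05% at Rian, 21.7% at Plagl1 and 11.3% at Gnas. These 10 genes had no K27me3 in the other 5 mice, and K27me3 in a single mouse was found for 29.4% of the imprinted genes and 13.2% of all genes. The overlap of K27me3 with K4me3 peaks across the genome was largest in the same mouse, and the part of that property in these calls was not tested. Slc38a4 had K27me3 in 3 mice. In control mouse 2 (30.9% covered) and EZH2ΔSET mouse 2 (20.6%) it lay at the 5′-most TSS and so apart from the K4me3 stretch of the gene, and in EZH2ΔSET mouse 1 (19.9%) it lay over the K4me3 peak. Both EZH2ΔSET peaks had the smallest width in the lists, 5001 bp, and with equal numbers of the widest peaks K27me3 remained at Slc38a4 in 1 mouse. At Grb10 the covered share was 38.3% in control mouse 2, 1.99% in control mouse 3 and 0.86% in EZH2ΔSET mouse 1. Over gene bodies, K27me3 was found at 1, 14 and 1 imprinted genes in control mice and at 2, 4 and 2 in EZH2ΔSET mice. These are 2.94 to 11.8% of the imprinted genes in the 5 mice other than control mouse 2, below the 12.1 to 16.3% of all genes, and 41.2% in control mouse 2, above the 21.3% of all genes. Kcnq1 and Kcnq1ot1 were covered there in control mouse 2 alone (9.22 and 31.8% of the body).

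The comparison of genotypes asked whether deleting the SET domain of EZH2 in acinar cells changed either mark at these genes. No imprinted gene had K27me3 values in the 3 EZH2ΔSET mice that lay wholly above or below those of the 3 controls, at the TSS or over the body, where 0.885% and 1.54% of all genes did in either direction. Without control mouse 1, 2 imprinted genes separated at the TSS, Magel2 higher and Grb10 lower in EZH2ΔSET mice, where 2.11% of all genes did. With 3 mice against 3 the exact two-sided permutation test cannot go below p = 0.1, and after adjustment over 31868 genes every p was 1 for all 3 measures. The values are therefore given as descriptions, and a value that did not separate is not shown to be unchanged.

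K4me3 coverage separated EZH2ΔSET from control mice at 8 of the 34 imprinted genes (4 higher, 4 lower), against 6.23% of all genes in either direction, of which 1602 were higher and 382 lower. Genes without K4me3 in any mouse cannot separate, and they are a larger share of all genes than of the imprinted genes. The shares are therefore not like for like. Airn was higher, with 20.5, 21.4 and 19.7% covered in EZH2ΔSET mice and 16.5, 15.6 and 17.6% in controls (means 20.5 ± 0.807 and 16.5 ± 1.02%, SD, n = 3 each). Of the 12 alternatives run on coverage, leaving out each mouse and the replicate block cannot undo a separation. Those that can are windows of 1 and 5 kb, the 5′-most TSS, the minimum peak width and equal numbers of peaks. Airn separated under all of those. The Airn peak began at -848, -627 and -697 bp relative to the TSS in EZH2ΔSET mice and at -181, -227 and -330 bp in controls, edges that were looked at after the coverage was seen and were not tested. Peg3, a zinc finger gene, was covered over 30.9, 29.7 and 28.7% against 25.5, 11.5 and 28.3% and also separated under all of those. Snrpn was covered over 17.6, 16.6 and 17.04% against 15.2, 6.66 and 14.2%, and Grb10 over 7.397, 7.67 and 7.62% against 6.85, 0 and 6.203%. At Peg3, Snrpn and Grb10 the lowest value belonged to control mouse 2. Without that mouse the difference fell from 8.04 to 2.90 percentage points at Peg3, from 5.07 to 2.40 at Snrpn and from 3.21 to 1.035 at Grb10. Snrpn and Grb10 no longer separated with 1 kb windows or with the 5′-most TSS.

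Of the 4 genes with lower coverage, Ascl2 was covered over 9.80, 0 and 7.65% in EZH2ΔSET mice against 17.4, 14.9 and 10.1% in controls. Gnas was covered over 23.6, 22.7 and 24.7% against 25.03, 25.6 and 31.6% (means 23.6 ± 0.991 and 27.4 ± 3.65%, SD, n = 3 each), and the means of Peg13 were 65.7 ± 2.02 and 68.2 ± 0.574%. For Gnas the direction turned when the 5′-most TSS alone was counted, to 3.73 percentage points higher in EZH2ΔSET mice, which rests on 1 peak of 671 bp in EZH2ΔSET mouse 3 since the other 5 mice were at 0 there. Over all windows, without control mouse 3 the Gnas difference was -1.69 instead of -3.79. Gnas did not separate with 1 kb windows or with peaks of at least 1 kb, and Ascl2 did not with peaks of at least 1 kb or equal numbers of peaks. The Ascl2 difference was -8.29, and -5.38 without EZH2ΔSET mouse 2. The difference at Peg13 was -2.49, and 0 with 1 kb windows, -1.36 without EZH2ΔSET mouse 1 and -11.98 with 5 kb windows. The Peg13 peak was 6328 bp wide in control mouse 2 and 3808 to 4221 bp in the other 5 mice. Leaving a mouse out can add separations but not undo them, and 8 to 14 imprinted genes separated over the mice left out. Without control mouse 3 the number of imprinted genes that separated was 14 (10 higher, 4 lower), where 14.5% of all genes did. Without control mouse 2 it was 10 (4 higher, 6 lower), and over all genes 2124 were then higher and 1739 lower.

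Impact, which encodes an inhibitor of the translational regulator GCN2, was the other gene with lower K4me3 in EZH2ΔSET mice. It separated under every alternative that can undo a separation. It was covered over 14.55, 12.7 and 12.4% of its windows against 15.8, 20.1 and 19.4% in controls (means 13.2 ± 1.16 and 18.4 ± 2.28%, SD, n = 3 each). The peak at its 5′-most TSS, looked at after these values were seen and not tested, was 1610, 1727 and 1911 bp wide in control mice and 1139, 1207 and 1161 bp in EZH2ΔSET mice. As a share of the window at that TSS, coverage was 29.2 ± 2.53% in control and 19.5 ± 0.578% in EZH2ΔSET mice. A second Impact stretch, between 15955 and 19072 bp downstream over internal starts, was 2210, 3118 and 2770 bp wide in controls, and its widest peak was 2372, 1359 and 1333 bp in EZH2ΔSET mice, so that the genotypes overlapped there. No K27me3 peak was found at Impact in any mouse.

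**Figure D5:**
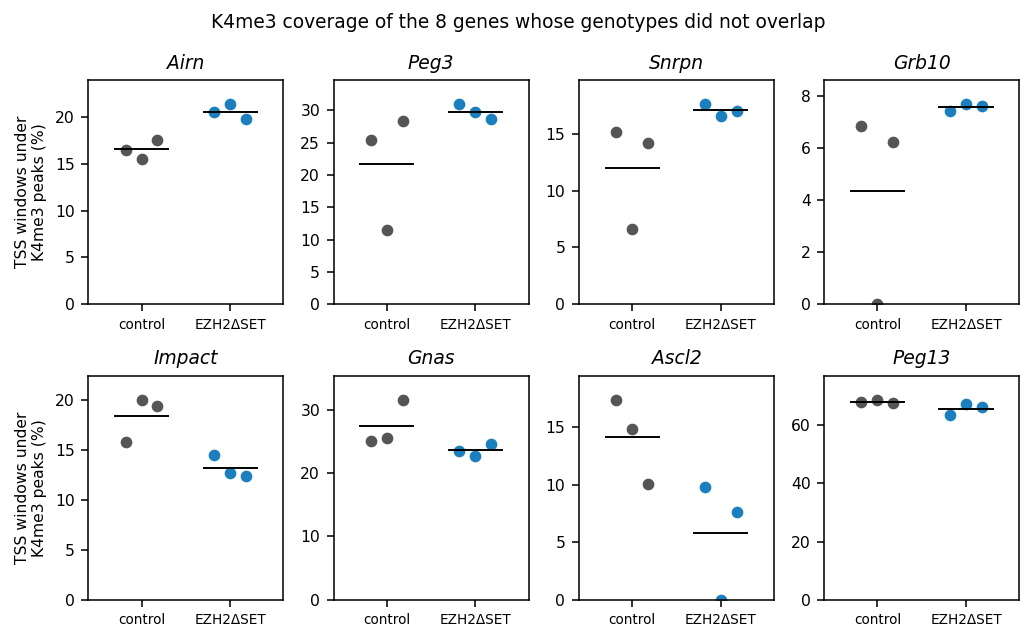
The percent of the TSS windows under K4me3 peaks is plotted per mouse (points) with the genotype mean (line) for the 8 imprinted genes whose K4me3 coverage separated the genotypes. EZH2ΔSET mice lie above controls at Airn, Peg3, Snrpn and Grb10 and below them at Impact, Gnas, Ascl2 and Peg13.

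Neighbours in the same domains and known regulators were examined as 2 further lists. Of 40 other imprinted or neighbouring genes, 39 were annotated by these symbols. Of these, 20 had K4me3 in all 6 mice and 12 in none, and 25 had K27me3 in none. K27me3 was present in all 6 mice at 3 of them, Calcr, Klf14 and Sfmbt2, which encodes a Polycomb-related protein and had both marks in every mouse. Asb4 (4 mice), Klf14, Cobl and Peg12 (2 mice each) and Casd1 and Gab1 (1 mouse each) also had both. In the Kcnq1 domain Cdkn1c, a cyclin-dependent kinase inhibitor, had K4me3 in 2 mice and K27me3 in none. Of the 39, Cobl, H13 and Usp29 separated the genotypes in at least 1 of the 3 measures, a share near that of all genes (8.23%). Of 14 imprint maintenance genes, 12 had K4me3 in all 6 mice, among them Trim28, Dnmt1, Uhrf1, Ctcf, Eed and Suz12, and 11 had K27me3 in none. Zfp57 itself had both marks in 3 mice, Dnmt3l had K4me3 in 5, and Dppa3 and Smchd1 separated the genotypes in at least 1 measure. Among the marker lists, 2 of 9 acinar genes (Cela1 and Ptf1a) did so, and their part in the results at imprinted genes was not tested.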

How the data were processed

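Per the labels and the methods of the study, chromatin from pancreas was immunoprecipitated for H3K4me3 or H3K27me3, and reads were checked with FastQC and aligned to mm10 with Bowtie2, and HOMER (findPeaks, histone style) then called peaks for every mouse relative to its input. Versions were not given in the sources used here. The deposited lists hold peak positions and a score that the authors left at 1 for every peak, so no height or depth was available, and a difference in depth changes every count. Replicates are separate mice. The 3 control and 3 EZH2ΔSET mice were used, and the other samples of the series are not reported here.

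TSSs were taken from GENCODE vM21 on the same build, and CpG-rich starts from the GRCm38.p6 genome. Multiple windows of a gene were merged (29 of the 34 genes have more than 1 TSS), which lowers the covered percent of genes with many starts. Genotypes were called different when the values of 3 mice did not overlap those of the other 3. Exact two-sided permutation p-values were adjusted by the Benjamini-Hochberg method over 31868 genes. The code was tested on simulated peaks.

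Members, lists and tests were chosen with earlier results of these data known. All members are accounted for by state, and values per mouse are given for those with both marks in at least 3 of the 6 mice (a rule first written as 6 of 12), those that separated the genotypes and those whose K27me3 differed within a genotype. Alternatives were windows of 1 and 5 kb, the 5′-most TSS, minimum peak widths of 1 kb (K4me3) and 5 kb (K27me3, which removes no peak), equal numbers of the widest autosomal peaks (16912 K4me3 and 15782 K27me3), presence in 3 mice against none, 10% of the window, 50% of the gene body, overlapping peaks, the replicate number as a block and each mouse left out. No promoter sequence is shown for H19, Peg10, Sgce, Kcnq1, Nespas, Peg13 or Impact. Python 3.11.15, numpy 2.4.6, pandas 2.3.3 and matplotlib 3.10.9 were used.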

Additional observations from a re-analysis of the deposited data

How the results depend on the processing

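With no depth or score, the peak lists limit every statement to called against not called, and 3 mice a genotype limit the exact permutation tests to p = 0.1. The mean number of imprinted genes with K4me3 per mouse, 25.17, became 19.33 with the 5′-most TSS, 20 with peaks of at least 1 kb, 21 when each list was reduced to equally many of its widest peaks and 18.83 with at least 10% of the window, and 24.6 to 26 with each mouse left out. The share of all genes with K4me3 is not given here for these window and peak settings. The K27me3 mean moved by less than the SD between mice (4.07) under all alternatives run, with 3.2 to 5.4 over the mice left out. Both marks did too (SD 2.251), with 1.8 to 3, and 1.667 with overlapping peaks. These SDs include control mouse 2, and without it the K27me3 SD was 0.8367. Over gene bodies the SD (5.02) exceeded the mean (4), so no fall could pass it. The gene body mean was 2 to 4.6 with each mouse left out and 0.8333 at 50% of the body. Of the means with a mouse left out, the lowest for K27me3, gene bodies and both marks were those without control mouse 2. The count of CpG-rich starts was 21, and 30 under the looser definition.

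For K4me3, 8 imprinted genes separated as reported (beside 6.23% of all genes), 5 with 1 kb windows (beside 4.71%), 5 with the 5′-most TSS (beside 5.53%) and 0 for presence in 3 mice against none (beside 0.138%), and 8 to 14 with each mouse left out (beside 9.13 to 14.5%), with 14 without control mouse 3. Leaving a mouse out cannot undo a separation, so the counts with a mouse left out could not fall below 8. The shares of all genes include genes without K4me3, which cannot separate. K27me3 gave 0 at the TSS and 0 to 2 with each mouse left out (beside 1.56 to 2.64% of all genes), with 2 without control mouse 1, and 0 over the body with 0 to 0 (beside 2.46 to 3.48%). Airn, Peg3 and Impact separated under all alternatives that can undo a separation, which leaves aside the mice left out and the replicate block. Gnas reversed with the 5′-most TSS, to 3.73 percentage points higher in EZH2ΔSET mice, from 1 peak in EZH2ΔSET mouse 3. The cause of the other changes was not tested.

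Replicate numbers were not taken as pairs, because control and EZH2ΔSET mice of equal number deviated from their group means with correlations across genes of 0.21, 0.21 and 0.036 for K4me3 and of 0.085, -0.093 and -0.038 for K27me3. With the replicate block, K4me3 separated at 13 genes (38.2%, against 14.1% of all genes), K27me3 at the TSS at 1 (Magel2; 2.94%, against 1.58%) and K27me3 over the body at 0.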
